A study of Mus musculus with 6 samples.

Results

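AP-1 and EGR immediate early factors are transcription factors whose genes are switched on within minutes of a stimulus. The set held 10 genes, listed by name and found in the deposited count table by gene identifier and mouse symbol, out of 55471 genes in all. All 10 passed the filter on low counts that left 13826 tested genes. Their poly(A) RNA was sequenced in bone-forming cells (primary osteoblasts) isolated from the skull cap of 3-day-old C57BL/6 mice. The cells were released with enzymes and harvested after 3 days in culture. The 3 TCKO libraries are labelled as a triple knockout and stem from mice homozygous for floxed alleles (fl/fl) of Tet1, Tet2 and Tet3, which encode oxidases of methylated cytosine in DNA. Their Prx1-Cre recombinase is driven by a promoter of limb and skull mesenchyme, so cells of other lineages keep the 3 genes. The 3 WT libraries came from mice labelled wild type, for which neither floxed alleles nor Cre are mentioned.

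AP-1 is a dimer of basic leucine zipper (bZIP) proteins. Fos, Fosb, Fosl1 and Fosl2 encode the Fos family, which binds DNA with a Jun partner, and Jun, Junb and Jund encode the Jun family, which can also pair with itself. Atf3 encodes a related bZIP factor induced by stress, and Egr1 and Egr2 encode zinc finger factors that bind GC-rich sites. Most of these genes are induced by serum, growth factors, mechanical force or tissue dissociation through MAP kinases, and their messenger RNAs decay quickly. In bone, Fosl2, Fosb and its short splice form, Fosl1 and Junb are known for roles in osteoblast differentiation and matrix production.

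Total counts ranged from 8019999 to 10177214 per library. Replicates 1 and 2 of each genotype were close to each other, since the chi-square of their counts divided by its degrees of freedom was 1.69 in WT and 2.04 in TCKO, over the value near 1 that sampling noise gives. Replicate 3 stood apart in both genotypes, at 16.6 to 23.3 against its group mates. Mitochondrial transcripts took 2.22% and 2.47% of the counts of the replicate 3 libraries and 1.11% to 1.24% of the other 4. TCKO replicate 3 also held 4583 counts of Xist and 0 of the Y-linked Ddx3y, while the other 5 libraries held 1 to 4 and 675 to 1094. This is the pattern of female cells in TCKO replicate 3 and of male cells in the other 5. Within replicate 3, genotype and sex therefore cannot be told apart. The methods speak of repeats per group and, for the study in general, of 3 or more mice per group, without tying a library to a mouse or culture. From these counts TCKO replicate 3 does not come from the same animals as TCKO replicates 1 and 2, while replicates 1 and 2 of a genotype may share theirs. The p-values measure the spread between these libraries, part of which may be technical. Of the targeted genes, Tet1 fell by 0.97 ± 0.16 (SE) on the log2 scale in TCKO (edgeR, adjusted p = 0.00648), Tet2 differed by -0.14 (adjusted p = 0.545) and Tet3 was higher by 0.51 (adjusted p = 0.00745). Counts over whole genes do not show whether a floxed exon was lost. Runx2 and Col1a1, which mark osteoblasts, were measured in all libraries, while the late markers Bglap and Dmp1 held at most 3 counts in any library.

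No AP-1 or EGR gene passed the test between the genotypes when all 6 libraries were compared without regard to replicate number (edgeR, 0 of 10 at an adjusted p under 0.05). Of all tested genes, 17.7% passed, 9.07% higher and 8.63% lower in TCKO, and 6.35% also differed by more than 2-fold. At an unadjusted p under 0.05 edgeR gave 1 member, Atf3, where 32.5% of all tested genes passed. DESeq2 also gave 0 members after adjustment and 1, Atf3, before it (27.3% of all tested genes), and left Fosb without a p. The median log2 difference (TCKO minus WT) over the 10 genes was 0.04, beside 0.0002 over all tested genes. The genotypes did not overlap for 2 of the 10, Fosl2 and Atf3, both with every TCKO library below every WT library; 38.3% of all tested genes did not overlap. With bulk RNA, fewer cells that express a gene and less RNA per cell cannot be told apart.

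**Figure D1:**
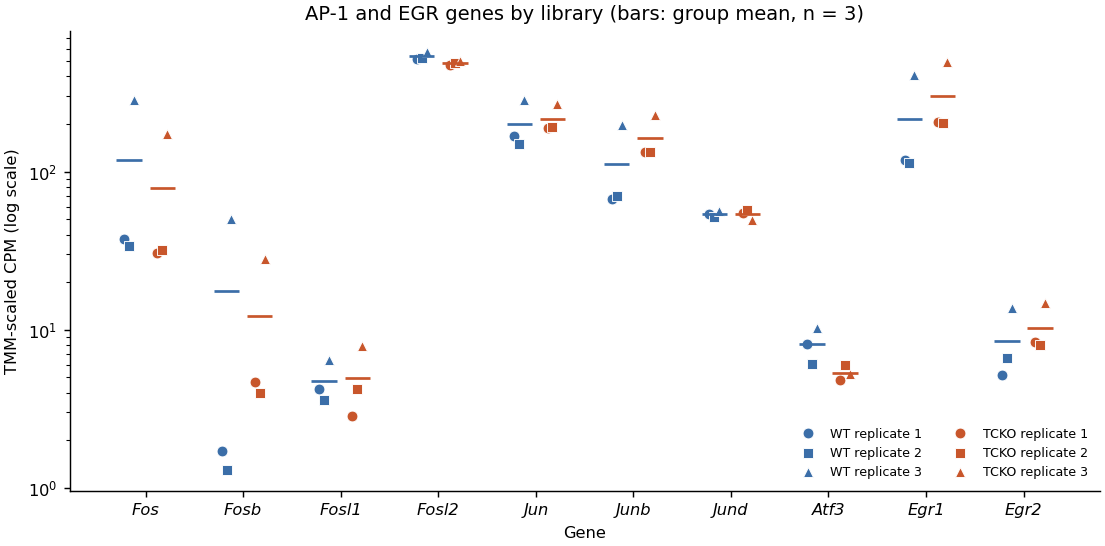
Expression of the 10 genes in CPM (counts scaled to a common library size, log axis) in each of the 6 libraries, with WT in blue, TCKO in orange, a marker shape for each replicate number and a bar at the group mean. The replicate 3 triangles of Fos, Fosb, Egr1 and Junb lie above the other libraries of their genotype, while Fosl2 and Jund are at nearly one level throughout.

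Levels are given below in CPM, the counts scaled to a common library size with TMM factors. Most of these genes differed more between replicate sets than between genotypes. In replicate 3, Fos, Fosb and Egr1 were more than 2-fold higher than the mean of replicates 1 and 2 in both genotypes, 3 of 10 genes, while 0.521% of all tested genes (72) were. In all, 8 members (80%) were higher in replicate 3 in both genotypes, beside 31% of all tested genes; the exceptions were Jund and Atf3, each higher in WT and lower in TCKO. The median shift of the 10 genes was 1.02 on the log2 scale in WT and 0.80 in TCKO, where the median of all tested genes was within 0.01 of 0 in each genotype. Ranked by the mean shift of both genotypes, Fosb stood at 1, Fos at 4, Egr1 at 35, Junb at 108, Egr2 at 163 and Fosl1 at 239 of 13826 genes. The rise was not particular to the members. Of 31 other immediate early genes tested, 22 (71%) were higher in replicate 3 in both genotypes. In that list 2 genes (6.45%) were more than 2-fold higher in both, and the median shift was 0.43 in WT and 0.48 in TCKO. With 1 replicate 3 library per genotype these shifts have no test, and what set that replicate apart was not tested.

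**Figure D2:**
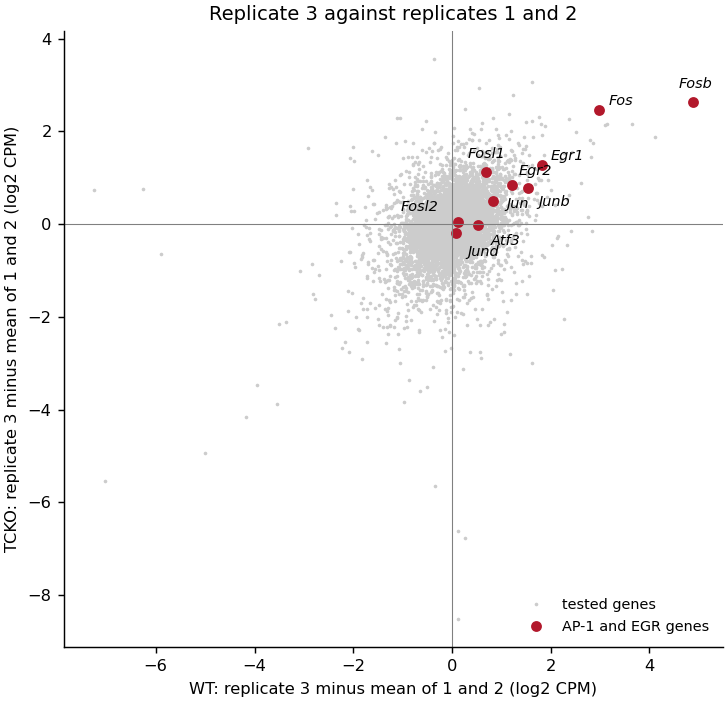
Log2 CPM of replicate 3 minus the mean of replicates 1 and 2, in WT (horizontal axis) and TCKO (vertical axis), for 13826 tested genes (grey) and the 10 AP-1 and EGR genes (red). Fosb, at 4.88 in WT and 2.63 in TCKO, and Fos, at 2.98 and 2.46, lie at the upper right edge of the cloud, and Jund, Fosl2 and Atf3 lie near its centre.

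Fos encodes the prototype AP-1 subunit, a short-lived protein that cannot pair with itself. The gene (ENSMUSG00000021250, GRCm38 chr12:85473890-85477273, plus strand) had 37.4, 33.8 and 283 CPM in WT replicates 1, 2 and 3, and 30.4, 32.1 and 173 CPM in TCKO. Both replicate 3 libraries were far above the other 4, and the genotypes overlapped. On the log2 CPM scale (prior count 2) the shift of replicate 3 amounted to 7.91-fold in WT and 5.51-fold in TCKO. Across all 6 libraries the genotype difference was -0.58 ± 0.95 (log2, SE; adjusted p = 0.719), so that the error was larger than the difference. TCKO was below WT within each replicate set, by a log2 difference of -0.19 in replicates 1 and 2 and -0.71 in replicate 3.

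Fosb encodes a Fos paralogue whose short splice form lacks part of the transactivating region, and counts per gene do not separate the splice forms. The gene (ENSMUSG00000003545, chr7:19302696-19310051, minus strand) held 14, 13 and 413 counts in the WT libraries against 41, 32 and 249 in TCKO, or 1.70, 1.30 and 50.1 CPM against 4.68, 3.98 and 27.9 CPM. It was thus rarely read in replicates 1 and 2 of WT and, on the same scale, 29.3-fold higher in replicate 3, while in TCKO the ratio was 6.20. The direction between genotypes was not the same in both sets. TCKO was higher by 1.41 on the log2 scale in replicates 1 and 2 and lower by a difference of -0.84 in replicate 3, and over all libraries the difference was -0.51 ± 1.26 (adjusted p = 0.817).

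The windows around the Fos and Fosb start sites are shown because these genes had the 2 largest shifts among the members. Each window runs from 250 bases before the RefSeq start to 50 after it (RefSeq, GRCm38.p6), written 5′ to 3′ on the gene's strand. Capitals mark a TATAAA box, the EGR site GCGNGGGCG, and TGACG, which is the first part of the cyclic AMP response element TGACGTCA. TGACG was added to the search after the sequences had been seen. Fos is chr12:85473640-85473939, plus strand, and Fosb is chr7:19309996-19310295, minus strand.
Fos: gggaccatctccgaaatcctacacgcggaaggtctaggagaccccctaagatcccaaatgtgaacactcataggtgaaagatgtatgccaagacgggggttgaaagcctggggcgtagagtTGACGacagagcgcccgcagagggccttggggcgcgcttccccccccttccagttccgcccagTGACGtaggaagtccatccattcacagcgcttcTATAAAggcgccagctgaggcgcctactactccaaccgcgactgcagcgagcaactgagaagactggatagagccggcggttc
Fosb: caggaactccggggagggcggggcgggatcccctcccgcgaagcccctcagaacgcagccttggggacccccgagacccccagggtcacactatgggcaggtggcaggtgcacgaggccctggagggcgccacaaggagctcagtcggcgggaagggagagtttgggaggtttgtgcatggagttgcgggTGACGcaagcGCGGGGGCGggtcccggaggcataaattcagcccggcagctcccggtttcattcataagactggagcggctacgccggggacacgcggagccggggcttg
In Fos, TATAAA lay at -33 to -28 from the start and TGACG at -129 to -125 and -66 to -62. In Fosb, an EGR site lay at -50 to -42, 5 bases after a TGACG at -60 to -56. Over all 27025 RefSeq windows, searched on both strands, 14.2% held TATAAA, 5.53% the EGR site and 20.9% TGACG. Windows could be matched for 8 of the 10 genes, all but Fosl1 and Egr1. The RefSeq start lay 0 to 30 bp from the deposited start for Fos, Fosb, Jun, Junb and Egr2, but 671 bp from it for Fosl2, 1210 bp for Jund, whose window lies outside the deposited gene, and 34706 bp for Atf3. None of the 8 windows held a complete TGACGTCA (1.85% of all windows), an AP-1 site TGANTCA (7.92%) or a CArG box, the site of serum response factor (1.59%). Only exact matches were counted, so variants of these sites, such as TGACATCA in the Jun window, were left out. These letters describe the windows only, and sites farther from the start were not searched.

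Fosl1 and Fosl2 encode the Fos-related antigens FRA1 and FRA2, which lack the strong transactivating region of Fos. Fosl1 (ENSMUSG00000024912, chr19:5447547-5455946, plus strand) was rarely read, with 4.24, 3.59 and 6.42 CPM in WT and 2.85, 4.23 and 7.85 CPM in TCKO. The replicate 3 library was again the highest in each genotype, and the genotype difference was 0.08 ± 0.39 (log2, adjusted p = 0.916). Fosl1 shares 1163 exonic bp with Ccdc85b on the opposite strand, which held 316 to 412 counts per library beside 25 to 70 for Fosl1, and whether counting used strand is not given in the sources used here.

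Fosl2 (ENSMUSG00000029135, chr5:32135801-32157842, plus strand) was the steadiest of the Fos genes. It had 515, 526 and 570 CPM in WT and 473, 487 and 498 CPM in TCKO, so that all TCKO libraries were below all WT libraries. The difference was small, -0.14 ± 0.08 (log2, adjusted p = 0.235), and replicate 3 differed from the others by a log2 value of 0.13 in WT and 0.05 in TCKO. Of the tested genes with a mean of at least 50 counts, the 3 closest to Fosl2 in pattern over the 6 libraries were Kbtbd4, Gm10736 and Sra1, with a root mean square difference in centred log2 CPM of 0.0211, 0.0226 and 0.0243.

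Per length, the make-up of the Fos family differed between the replicate sets. RPKM, the reads per kilobase of exon scaled to library size, was summed over the 4 Fos genes in each library. Fosl2 made up 74.4% and 76.9% of that sum in WT replicates 1 and 2 and 76.4% and 75.5% in TCKO, but 30.9% and 38.6% in replicate 3. Fos made up 20.2% to 22.3% in replicates 1 and 2 of both genotypes, and 63.2% in WT and 55.2% in TCKO replicate 3. The summed family level was 64.0 to 71.4 RPKM in the first 2 replicates and 190 and 133 RPKM in replicate 3. Between the genotypes, the Fosl1 plus Fosl2 share was 63.1% ± 26.4 in WT and 66.2% ± 21.4 in TCKO (SD, n = 3; exact permutation test, two-sided, p = 0.7). With 3 against 3 this test cannot go below 0.1. Leaving out a library turned this difference of 3.14 percentage points to between -12.12 (without WT replicate 3) and 15.52 (without TCKO replicate 3).

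**Figure D3:**
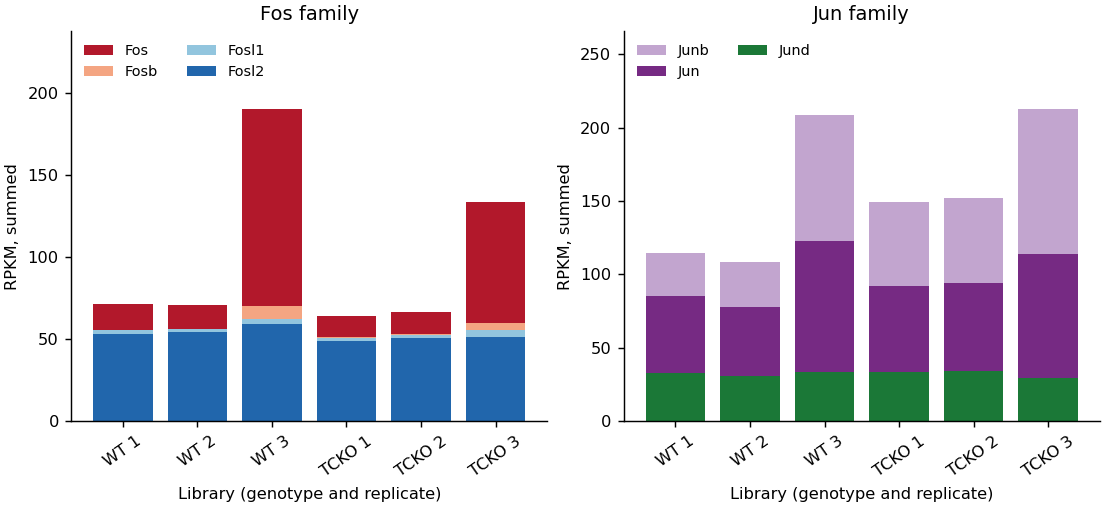
Summed RPKM of the Fos family (left) and the Jun family (right) in each library, stacked by gene from a zero baseline. Fosl2 and Jund keep a nearly constant height, while Fos makes up most of the Fos column in replicate 3. Junb is the largest part of the Jun column in TCKO replicate 3 and Jun in the other 5 libraries.

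Jun encodes the Jun subunit that is also a target of the JNK kinases. The gene (ENSMUSG00000052684, chr4:95049034-95052222, minus strand) had 169, 150 and 284 CPM in WT and 188, 191 and 269 CPM in TCKO. Replicate 3 was 1.79-fold higher in WT and 1.42-fold in TCKO, and the groups overlapped. The genotype difference was 0.11 ± 0.25 (log2, adjusted p = 0.807), with 0.25 in replicates 1 and 2 and -0.08 in replicate 3.

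Junb encodes a Jun paralogue that can restrain Jun and is needed for normal bone formation. The gene (ENSMUSG00000052837, chr8:84974484-84978718, minus strand) had 67.0, 70.0 and 198 CPM in WT and 133, 133 and 227 CPM in TCKO. Within each replicate number the TCKO library was above the WT library, but WT replicate 3 was above TCKO replicates 1 and 2. Without regard to replicate number the difference was 0.56 ± 0.43 (log2, adjusted p = 0.416). With the replicate number as a block Junb was higher in TCKO by 0.69 ± 0.16 (edgeR, adjusted p = 0.0209). The adjusted p of Junb ranged from 1.18e-23, in replicates 1 and 2 alone, to 0.739, without WT replicate 1, over 18 alternatives. Junb shares 173 exonic bp with Prdx2 on the opposite strand, for which the WT libraries held 1079, 1535 and 1292 counts and the TCKO libraries 1898, 1805 and 1910.

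The Junb window (chr8:84978699-84978998, minus strand, marked as above) is shown as that of a gene called with the replicate block.
Junb: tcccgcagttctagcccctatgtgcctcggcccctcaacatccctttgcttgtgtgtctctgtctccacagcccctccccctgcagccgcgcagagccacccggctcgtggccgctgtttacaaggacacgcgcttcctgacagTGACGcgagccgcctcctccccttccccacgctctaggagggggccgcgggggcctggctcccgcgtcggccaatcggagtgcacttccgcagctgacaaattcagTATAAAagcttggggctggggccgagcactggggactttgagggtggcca
The TATAAA here begins at the RefSeq start itself, which lies 30 bases before the start in the deposited table, and TGACG lies at -106 to -102.

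Jund encodes the Jun protein that is present without stimulation and often counters the others. The gene (ENSMUSG00000071076, chr8:70698949-70700616, plus strand) had 54.2, 51.5 and 56.0 CPM in WT and 55.1, 57.1 and 49.2 CPM in TCKO. The groups overlapped with no replicate apart from the rest, and the difference was -0.003 ± 0.08 (log2, adjusted p = 0.988), a sign that depended on the scaling factors used. Among the 10 genes the closest pair in pattern was Fosl2 and Jund, with a root mean square difference of 0.111, followed by Junb and Egr1 at 0.197. Of its 1668 exonic bp, Jund shares 877 with Gm11175 on the opposite strand, which held 0 counts in every library. Since the strand setting of the counting is not given, the level of Jund and its share of the Jun family are less certain.

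In the Jun family the share of Junb was higher in TCKO in each replicate number. Junb made up 25.4%, 28.1% and 41.3% of the summed RPKM of Jun, Junb and Jund in WT and 38.5%, 38.1% and 46.5% in TCKO. Jun made up 46.2%, 43.4% and 42.6% in WT and 39.4%, 39.4% and 39.6% in TCKO, with no overlap between the genotypes. The share of Jun differed by -4.59 percentage points, which gave the smallest p this design allows (exact permutation test, two-sided, p = 0.1; 0.6 after Benjamini-Hochberg adjustment over the 6 shares compared). The Junb share differed by 9.43 points (exact permutation p = 0.3, adjusted 0.8) and the Jund share by -4.84 points (exact permutation p = 0.4, adjusted 0.8). Jund made up 28.4%, 28.5% and 16.1% in WT and 22.1%, 22.5% and 13.9% in TCKO, lowest in replicate 3 of both.

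Atf3 encodes a stress-induced bZIP factor that represses transcription as a homodimer. The gene (ENSMUSG00000026628, chr1:191170296-191218039, minus strand) had 8.11, 6.09 and 10.3 CPM in WT and 4.79, 5.97 and 5.27 CPM in TCKO. It was the member with the lowest p, with all TCKO libraries below all WT libraries, a margin that rested on 61 counts in WT replicate 2 and 48 in TCKO replicate 2. The difference was -0.61 ± 0.23 (log2, adjusted p = 0.11), and with the replicate block -0.59 ± 0.22 (adjusted p = 0.104). Under all 18 alternatives Atf3 kept its direction and missed the threshold, at adjusted p of 0.0555 to 0.28. The 3 genes closest to it in pattern were Snai1, Mfsd4b4 and Fdxr, at 0.103, 0.104 and 0.116, none of which passed the test itself.

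Egr1 encodes a zinc finger factor induced through serum response factor, and its product activates among others the genes of its own corepressors. The gene (ENSMUSG00000038418) had 118, 114 and 410 CPM in WT and 207, 203 and 495 CPM in TCKO. As for Junb, each TCKO library was above the WT library of the same number, and WT replicate 3 was above TCKO replicates 1 and 2. The difference was 0.50 ± 0.55 (log2, adjusted p = 0.583) without the block. With the block Egr1 was higher by 0.63 ± 0.12 (edgeR, adjusted p = 0.0117), and its adjusted p over the alternatives ranged from 1.16e-23 in replicates 1 and 2 alone to 0.953 without TCKO replicate 3.

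Egr2, a paralogue that controls myelination and is also expressed in bone cells, was much less abundant. The gene (ENSMUSG00000037868, chr10:67535475-67542188, plus strand) had 5.21, 6.59 and 13.8 CPM in WT and 8.33, 7.96 and 14.7 CPM in TCKO. As for Egr1, WT replicates 1 and 2 were below every TCKO library and the replicate 3 libraries were above the other 4, with a genotype difference of 0.28 ± 0.39 (log2, adjusted p = 0.665).

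With the replicate block, 2 of the 10 genes were called, Junb and Egr1, both higher in TCKO. The replicate 3 pair of this block differs in sex as well as genotype, and the part of sex was not tested. In the same fit 23.5% of all tested genes were called and 12.0% were higher, so that 2 of 10 members (20%) is not a share that sets them apart from the background. A term that set replicate 3 against replicates 1 and 2 called 3, Junb and Egr1 higher and Fos lower, beside 30.9% of all genes. In replicates 1 and 2 alone, 5 were called, Jun, Junb, Egr1 and Fosb higher and Fosl2 lower, beside 45.1% of all genes. With the counts of those 2 close replicates summed, no member was called, with or without the block.

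**Figure D4:**
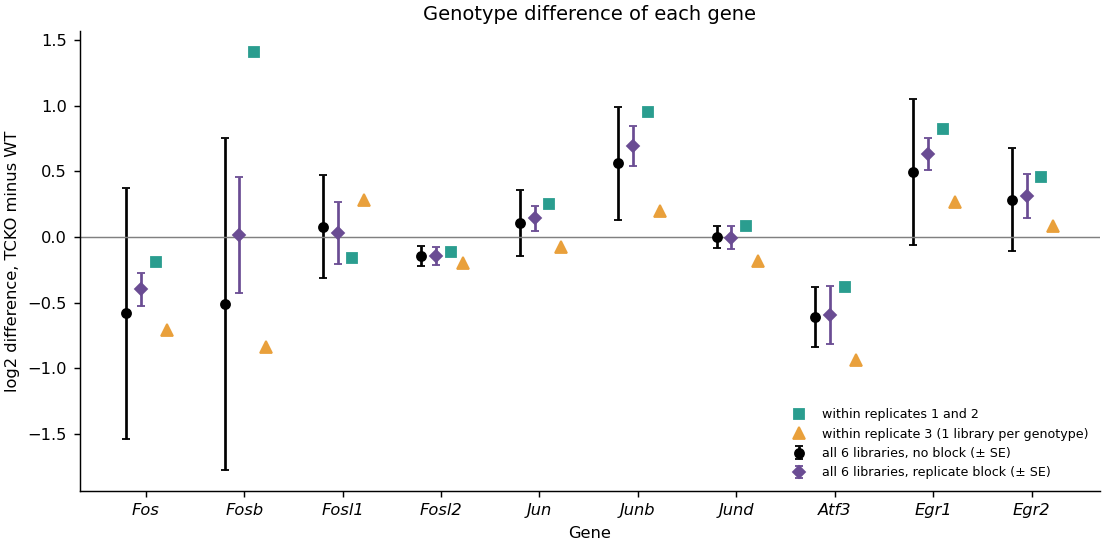
Log2 difference (TCKO minus WT) of each gene over all 6 libraries without a block (circles, ± SE), with the replicate block (diamonds, ± SE), and as plain differences within replicates 1 and 2 (squares) and within replicate 3 (triangles). Junb, Egr1 and Egr2 lie above 0 by all 4 measures and Fos, Fosl2 and Atf3 below 0, while Fosb runs from 1.41 to -0.84.

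On the per-length scale the members formed an abundant and a scarce group in both genotypes. In WT the means were 62.9 RPKM for Jun, 55.5 for Fosl2, 50.2 for Fos, 48.5 for Junb, 47.7 for Egr1 and 32.3 for Jund, followed by 3.79 for Atf3, 2.83 for Fosb, 2.51 for Egr2 and 2.34 for Fosl1. In TCKO Junb led with 71.4 RPKM, then Jun with 67.7, Egr1 with 67.3, Fosl2 with 50.2, Fos with 33.4 and Jund with 32.3. Egr2 at 3.04, Atf3 at 2.48, Fosl1 at 2.45 and Fosb at 1.95 RPKM followed. Between neighbours in either order, only the step below Jund was free of overlap between libraries. Within single libraries the leading gene was Fosl2 in WT replicates 1 and 2, Jun in TCKO replicates 1 and 2, Fos in WT replicate 3 and Egr1 in TCKO replicate 3.

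Of 31 other immediate early genes tested, 20 did not pass, 6 were higher and 5 lower in TCKO, with a median log2 difference of 0.22. This and the list counts that follow stand beside 9.07% higher and 8.63% lower over all tested genes, and those with the replicate block beside 23.5% in either direction. The lists are small and were chosen with results known, so their counts are a description. Among the higher genes was Egr3, the third member of the EGR family, with 4.24, 3.09 and 6.18 CPM in WT and 14.6, 13.5 and 20.1 CPM in TCKO (log2 difference 1.85 ± 0.27, adjusted p = 0.00357). Ptgs2, which encodes the inducible cyclooxygenase of prostaglandin synthesis, had 219, 256 and 775 CPM in WT and 1110, 1110 and 1770 CPM in TCKO (1.67 ± 0.47, adjusted p = 0.046). Ptgs2 was no longer called with DESeq2, the study's recipe, a robust fit or the filter at a mean of 50 counts. Arc (0.85), Ier5 (0.70) and Ier5l (0.63) were also higher, as was Gem, which was below the count minimum for named genes and is given for completeness. Klf2 fell by 1.60 and Klf4 by 1.28, both Krüppel-like factors, Rhob, a small GTPase, fell by 0.75, Gadd45g by 0.57 and the survival gene Mcl1 by 0.30. Klf2 had 100, 89.4 and 90.8 CPM in WT and 21.5, 21.4 and 49.4 CPM in TCKO, so that the replicate 3 library was the highest in TCKO only. With the replicate block the list had 9 higher and 5 lower genes, the additional ones being Nr4a1, Phlda1 and Klf10, chosen here after their values were seen. Nr4a1, an orphan nuclear receptor, shared the replicate 3 pattern of Fos, with 10.5, 14.7 and 68.5 CPM in WT and 34.5, 39.3 and 108 CPM in TCKO.

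Of 14 tested genes for feedback inhibitors of ERK signalling (dual-specificity phosphatases, Spred and Sprouty proteins, and Errfi1), 4 were higher and 1 lower, with a median of 0.16. The other 9 were not called, among them Dusp6, Errfi1 and the Sprouty genes Spry1, Spry2 and Spry4. Dusp4, a nuclear phosphatase of ERK, had 2.42, 2.99 and 2.79 CPM in WT and 11.8, 10.2 and 21.3 CPM in TCKO (2.39 ± 0.32, adjusted p = 0.00243). Dusp5 (1.15), Spred3 (0.97) and Dusp10 (0.87) were higher too. Dusp1, itself an immediate early gene, had 325, 297 and 489 CPM in WT and 73.4, 79.9 and 186 CPM in TCKO, and fell by 1.71 ± 0.37 (adjusted p = 0.0172). With the block Dusp2, named after its values were seen, was added to the higher genes.

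Of 17 tested bZIP genes outside the members, none was higher and 5 were lower, with a median of -0.25. Atf5 fell by 0.90, from 523 to 609 CPM in WT to 224 to 349 CPM in TCKO. Maf fell by 0.52, Jdp2, a repressor that pairs with Jun, by 0.50, Atf7 by 0.34 and Atf4, a driver of amino acid import and matrix synthesis in osteoblasts, by 0.30. The block added 1 higher gene, Cebpb, named after its values were seen. Of the 5 EGR corepressors and partners, Nab2 alone passed. It encodes a corepressor that binds Egr1 and Egr2, and had 86.0, 84.8 and 81.5 CPM in WT and 122, 120 and 129 CPM in TCKO (0.56 ± 0.07, adjusted p = 0.00165). Of 31 upstream kinases and factors 3 were higher and none lower, with a median of 0.07, namely Mapk13 (1.03), Rps6ka2 (0.69) and Mapk12, which was below the count minimum for named genes. With the block the list had 4 higher and 1 lower, gaining Mapk11 (0.55 ± 0.16, adjusted p = 0.0485) and, as a lower gene, Map2k3 (-0.46 ± 0.10, adjusted p = 0.0203), both named after their values were seen.

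Genes known as AP-1 targets had 7 higher and 1 lower of 19 tested, with a median of 0.47. Mmp3, which encodes stromelysin, had 0.484, 0.499 and 1.21 CPM in WT and 19.3, 14.4 and 3.03 CPM in TCKO (4.06 ± 0.76, adjusted p = 0.00998). Mt1 (0.77), Tgfb1 (0.72), Vegfa (0.70) and Plau (0.66) were higher, and Ccnd1, the G1 cyclin, fell by 1.96, from 438 to 795 CPM in WT to 151 to 202 CPM in TCKO. The direction of Mmp3 over the replicates was not that of Fos, since within TCKO replicate 3 was the lowest. With the block the count was 11 higher and 2 lower.

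Bone matrix genes linked to AP-1 had 1 higher and 5 lower of 10 tested, with a median of -0.73. Spp1, osteopontin, was higher by 2.62 ± 0.44 (adjusted p = 0.00669), while Alpl, tissue alkaline phosphatase, fell by 3.54, Sparc by 0.95, Mgp by 0.89, Col1a1 by 0.61 and Runx2 by 0.45. With the block 1 was higher and 8 were lower, the added ones being Col5a2 (adjusted p = 0.0188), Col1a2 (adjusted p = 0.018) and Sp7 (adjusted p = 0.000152), named after their values were seen. Heat shock genes, which respond to heat and protein damage, had 6 higher and 1 lower of 14, with a median of 0.39. Hspb1 was higher by 1.08, Hspd1 by 0.64, Hsp90aa1 by 0.61, Hspe1 by 0.45, Hsp90ab1 by 0.45 and Dnaja1 by 0.42, and Hsph1 fell by 0.54. Of all 46 list genes called, 24 stayed called with each library left out in turn and none changed direction. Calls were lost mostly without a replicate 1 or 2 library (19 to 21 of the 46 in each case, against 2 without WT replicate 3 and 5 without TCKO replicate 3), and those lost in at least 1 such fit included Ptgs2, Gadd45g, Arc, Mcl1, Dusp1, Dusp5, Dusp10, Atf4, Mmp3 and Col1a1.

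**Figure D5:**
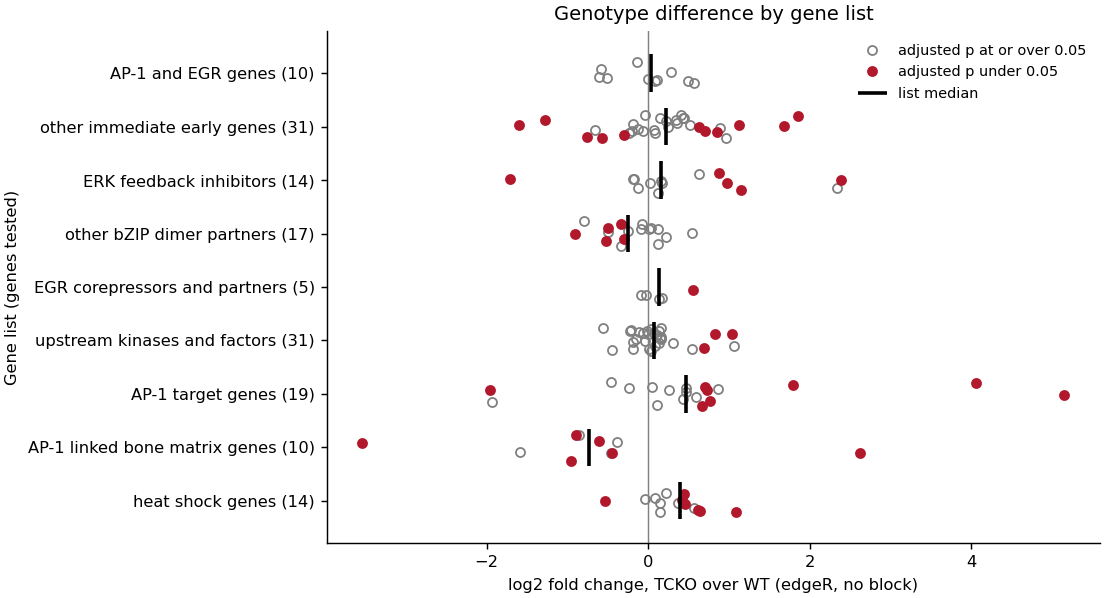
Log2 fold change (TCKO over WT, edgeR without block) of each tested gene of the 10 AP-1 and EGR genes and of the 8 gene lists, with filled points at an adjusted p under 0.05 and a black bar at the list's median. All 10 member points are open, and filled points lie on both sides of 0 among the other immediate early genes.

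Markers of other cell types moved with genotype and with replicate set beside these genes. Chondrocyte markers summed to 6250 to 8160 CPM in WT and 685 to 970 CPM in TCKO, with 7 of 8 lower, and osteoblast markers to 40900 to 43700 CPM in WT and 22400 to 37100 CPM in TCKO. Haematopoietic markers summed to 403 to 711 CPM in WT and 188 to 570 CPM in TCKO. Most of each sum was Lyz2, and the sums were lowest in replicate 3 of each genotype. Among the WT libraries alone, Adgre1 (14.3, 13 and 24.4 CPM), Cd14 and Mcpt8 were highest in replicate 3, while the other tested haematopoietic markers were lowest there. Of 9 tested, 3 were lower in TCKO and 1, Mcpt8, was higher by 4.85 (log2, edgeR, adjusted p = 0.000127). Endothelial markers summed to 2.39 to 3.52 CPM in WT and 34.7 to 95.3 CPM in TCKO, and of them Kdr alone passed the filter on low counts. Kdr made up nearly all of the TCKO sums, with 0.363, 0.399 and 1.58 CPM in WT and 33.4, 33.1 and 93.9 CPM in TCKO. The other endothelial markers each had at most 0.969 CPM in any library and did not share that rise. Muscle markers summed to 9.68 to 29.9 CPM in WT and 35.4 to 85.6 CPM in TCKO. Of the 3 muscle markers tested, Acta1 alone was called, higher by 3.14 (log2, edgeR, adjusted p = 0.00416), and Des and Myh3 were not. Schwann cell and neuron markers summed to 76.4 to 99.5 CPM in WT and 75.9 to 85.3 CPM in TCKO. Most of that sum was Tubb3, which was not called, while S100b fell by 3.42 (log2, edgeR, adjusted p = 0.000428). Epithelial markers summed to at most 0.605 CPM in any library. The part of these cell types in the AP-1 and EGR values was not tested.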

How the data were processed

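Poly(A) RNA of osteoblasts was sequenced in 3 WT and 3 TCKO directional libraries. The authors aligned the reads to GRCm38 (Ensembl release 99) with STAR 2.7.0e and counted them per gene with featureCounts 2.0.0, as the submitters' processing notes name them, and deposited raw counts with the summed exon length of each gene. The strand setting is not given in the sources used here, so genes that overlap on opposite strands are less certain. Sample columns left unassigned and rows without a gene name numbered 0.

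Counts were tested with edgeR 4.0.16 in R 4.3.3 (filterByExpr, TMM factors, glmQLFit and glmQLFTest, Benjamini-Hochberg adjustment over 13826 genes, threshold 0.05), over all 6 libraries without covariates. CPM and RPKM use the TMM-scaled library sizes. Differences between replicates are on log2 CPM with a prior count of 2. Standard errors come from the F statistic. DESeq2 1.42.0 and the study's recipe (DESeq2, RPKM over 0.24), other scaling factors and filters, a robust fit, the replicate block, replicates 1 and 2 summed or alone, a term for replicate 3, and each library left out were the alternatives. The edgeR steps were tested on simulated data. A count of 0 allows up to 3 counts, or 0.295 to 0.374 CPM, counting error only.

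The members and lists were chosen with earlier results of these data known. Named genes are all 10 members; from each other list the genes with an adjusted p under 0.05, up to 6 per direction by size of change, from 50 counts on average; the 3 genes nearest in pattern to the member with the lowest p and to the member with the highest mean CPM (Fosl2, which does not lead per length); Tet1, Tet2 and Tet3; and cell type markers. Genes outside this rule are said to be so where they are named.

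The replicate numbers were checked for pairing, since the titles give both genotypes numbers 1 to 3 without saying that a number marks a shared day or litter. Deviations from the group means correlated across genes, which are not independent, at 0.204, 0.214 and 0.347 for libraries of the same number, each over the minimum of 0.1. Across numbers 1 and 2 the values were 0.225 and 0.188, so these numbers are not told apart, and with number 3 they were negative.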

Additional observations from a re-analysis of the deposited data

How the results depend on the processing

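Normalization (RLE or upper-quartile factors), filters on low counts, DESeq2, the study's recipe and a robust fit left 0 AP-1 or EGR genes called, and the count of other immediate early genes within 1.5 times of 11. The replicate block, which pairs libraries by number, called 2 members (Junb and Egr1), changed no other member call and turned Fosb to 0.017 on the log2 scale. It called 3249 of all tested genes against 2447 without it, and 14 other immediate early genes. No call on the gene lists was lost.

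Replicates 1 and 2 alone called 6237 of all genes, 5 members and 23 other immediate early genes, with Fosb at 1.55, Fosl1 at -0.14 and Jund at 0.0881. A term that set replicate 3 apart called 4272, 3 and 18. Summing replicates 1 and 2 called 386 of all genes, 0 members and 0 other immediate early genes, and with the block 1150, 0 and 8. The cause of these moves was not tested, but the summed fits hold 4 samples. Upper-quartile factors turned Jund to 0.00235.

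With each library left out in turn, all genes called ranged from 1153 to 3122, members called from 0 to 1 (Junb, without WT replicate 3) and other immediate early genes from 6 to 13, with 6 in each fit that left out a replicate 1 or 2. Direction was not kept by Fos (-1.91 to 1.15, positive without WT replicate 3), Fosb (-1.998 to 3.04), Fosl1 (-0.42 to 0.36), Jun (-0.0785 to 0.44), Jund (-0.0465 to 0.0622), Egr1 (-0.0561 to 1.38) and Egr2 (-0.0553 to 0.80), the last pair negative without TCKO replicate 3. Junb ranged from 0.26 to 1.26, and Fosl2 and Atf3 stayed negative in every alternative. The Fosl1 plus Fosl2 share differed by -12.12 to 15.52 percentage points, and the Jund share by -8.97 to -2.04.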
